A study of Mus musculus with 7 samples.

Results

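The alpha and beta variable segments of the T cell receptor are the gene pieces from which each T cell builds the antigen-binding part of its receptor. All rows of the deposited expression table annotated as functional T cell receptor variable genes and named Trav (alpha chain) or Trbv (beta chain) were taken, which gave 130 segments, 108 alpha and 22 beta, of 54532 genes. RNA was sequenced in bulk from GFP+ cells that flow cytometry had sorted out of the spleen of IL-17GFP/+ transgenic mice, and the cells are labelled Th17. All 7 libraries carry this reporter, in which GFP marks cells that express IL-17. The 4 health libraries came from mice without a ligature, numbered 1 to 4. The 3 periodontitis libraries, numbered 2 to 4, came from mice whose lower first molars on both sides were tied with a silk thread, a standard model of gum disease. The labels used here give no age, strain background or time after ligature and do not say whether each library is 1 mouse. The p-values thus reflect only how far these libraries vary, and that variation may be technical.

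A receptor chain is made when a developing thymocyte joins 1 variable segment to a joining segment, with a diversity segment between them in the beta chain, and splices the product to a constant gene. Each T cell clone therefore transcribes its own rearranged variable segment at a high level, and the mixture of segments in a sample reflects the mixture of clones in it, weighted by RNA. A few T cell types use nearly fixed segments. Invariant natural killer T cells pair Trav11 and the joining segment Traj18 with Trbv13, Trbv29 or Trbv1, and mucosal-associated invariant T cells use Trav1 with Traj33 and mostly Trbv13 or Trbv19. Alpha segments with "dv" in their names can also rearrange to the delta chain of gamma-delta T cells, because the delta genes lie inside the alpha locus. Interleukin-17 in the spleen comes from CD4+ T helper cells and from gamma-delta T cells, among others.

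The 108 alpha segments lie on chromosome 14 between positions 52427928 and 53977678 and the 22 beta segments on chromosome 6 between 40891229 and 41558452 (mm10 in the submitters' notes). All alpha segments are on the plus strand, as are 21 of the beta segments, and Trbv31 is on the minus strand. The alpha locus holds repeated blocks, whose copies carry a d or an n in the name. 46 alpha segments have no such letter, 34 have d and 28 have n. The end of a segment, where it is joined, shows how alike the copies are. The last 90 bases of the annotated segment are given below 5′ to 3′ from GENCODE M21 (GRCm38), with the codon of the last in-frame cysteine, after which the joined region of the receptor begins, in capitals.

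The first group holds beta segments with high levels or large differences. Trbv13-2, Trbv13-3 and Trbv13-1 are 3 members of 1 family, and Trbv19 and Trbv16 are the sole members of theirs.
Trbv13-2: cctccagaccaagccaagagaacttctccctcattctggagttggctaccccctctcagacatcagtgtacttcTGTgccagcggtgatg
Trbv13-3: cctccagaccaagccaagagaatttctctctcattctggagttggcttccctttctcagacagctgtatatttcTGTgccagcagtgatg
Trbv13-1: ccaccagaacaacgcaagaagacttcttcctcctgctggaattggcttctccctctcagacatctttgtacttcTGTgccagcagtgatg
Trbv19: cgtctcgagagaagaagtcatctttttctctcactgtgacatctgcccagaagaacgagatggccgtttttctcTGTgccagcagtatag
Trbv16: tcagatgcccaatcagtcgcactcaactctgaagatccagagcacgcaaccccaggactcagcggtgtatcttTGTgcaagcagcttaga
Within the Trbv13 family the shown ends differed by 10 bases between Trbv13-2 and Trbv13-3, 15 between Trbv13-2 and Trbv13-1, and 19 between Trbv13-3 and Trbv13-1, while Trbv19 and Trbv16 differed from the family by 36 to 45 bases.

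The second group holds alpha segments, chosen to show the segment with the largest log2(FPKM + 1) difference beside its copies (Trav6-5, Trav6d-5, Trav6n-5), the segment with the highest share in 1 library (Trav9-2), a segment with no close copy (Trav21-dv12), an identical pair (Trav12n-3, Trav12d-3) and the segments of invariant natural killer T cells (Trav11, Trav11d).
Trav6-5: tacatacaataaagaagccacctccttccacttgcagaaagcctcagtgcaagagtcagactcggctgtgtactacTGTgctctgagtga
Trav6n-5: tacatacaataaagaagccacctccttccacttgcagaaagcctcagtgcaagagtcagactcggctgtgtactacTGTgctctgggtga
Trav6d-5: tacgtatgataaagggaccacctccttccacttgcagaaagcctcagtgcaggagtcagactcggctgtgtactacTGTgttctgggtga
Trav9-2: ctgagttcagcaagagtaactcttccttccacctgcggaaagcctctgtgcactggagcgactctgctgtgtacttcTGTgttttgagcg
Trav21-dv12: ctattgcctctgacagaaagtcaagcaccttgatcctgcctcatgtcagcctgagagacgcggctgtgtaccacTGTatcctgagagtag
Trav12n-3: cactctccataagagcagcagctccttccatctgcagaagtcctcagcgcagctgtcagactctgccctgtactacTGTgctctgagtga
Trav12d-3: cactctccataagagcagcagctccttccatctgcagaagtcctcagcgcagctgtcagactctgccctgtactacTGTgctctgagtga
Trav11: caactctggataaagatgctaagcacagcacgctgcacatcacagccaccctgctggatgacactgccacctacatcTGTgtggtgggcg
Trav11d: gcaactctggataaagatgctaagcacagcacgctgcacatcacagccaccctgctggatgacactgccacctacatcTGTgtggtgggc
Trav6-5 and Trav6n-5 differ by 1 base over these 90 and Trav6-5 and Trav6d-5 by 9. Trav12n-3 and Trav12d-3 differ by none. Trav11d is the same as Trav11 over its length and its model ends 1 base earlier.

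Reads came to between 13513806 and 17891393 per library, and genes with a read numbered 16852 to 19721 in health and 15322, 17546 and 12226 in periodontitis 2, 3 and 4. The T cell markers were present in all libraries, and their summed level was 120 to 272 FPKM (fragments per kilobase of gene, scaled to library depth) in health and 845 to 1980 FPKM in periodontitis. Il17a, the gene that the reporter marks, was at 0 to 3.76 FPKM in health and at 136 to 362 FPKM in periodontitis. Of 7 T cell markers 7 were called higher in periodontitis by limma, as were 6 of 6 Th17 and 5 of 5 gamma-delta T cell markers. Over all 12999 genes tested, 5.63% were called higher and 10.2% lower. All 6 macrophage markers were called lower, with a sum of 2215 to 6162 FPKM in health against 188 to 419 FPKM in periodontitis. Of 4 plasma cell markers 1 was called higher, and the 5 B cell, 5 neutrophil and 3 natural killer cell markers were not called. Xist, the RNA of the inactive X chromosome, stood at 52.1 to 72.5 FPKM in health and at 0.135 to 1.35 FPKM in periodontitis, so the sex of the mice and periodontitis cannot be told apart. The part of these differences in the results that follow was not tested.

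The total of all alpha segments was several times higher in periodontitis. In health 1 to 4 the sum was 38.3, 47.1, 51.2 and 84.5 FPKM, and in periodontitis 2, 3 and 4 it was 467, 276 and 225 FPKM, so the groups did not overlap. The means were 55.3 ± 20.2 FPKM (SD, n = 4) and 323 ± 128 FPKM (SD, n = 3), a 5.84-fold ratio, and the difference of the log2 totals was 2.54 (95% interval 1.54 to 3.54, from the pooled SD). The exact two-sided permutation p was 0.0571, the smallest that 35 assignments of 4 and 3 libraries can give, so no single value per library could pass 0.05 in this design. These totals rested on 250, 311, 329 and 480 recovered reads in health and on 2658, 1804 and 1358 in periodontitis.

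The beta total moved in the same direction. It was 71.6, 132, 137 and 132 FPKM in health 1 to 4, and 916, 502 and 355 FPKM in periodontitis 2, 3 and 4. The ratio of the means was 5.00 and the difference of the log2 totals 2.26 (95% interval 1.16 to 3.36, exact permutation p = 0.0571). Health 1 was the lowest health library and periodontitis 2 the highest of all. Beta segments were read more than alpha segments in every library, with 1.57 to 2.81 FPKM of beta per FPKM of alpha in health and 1.58 to 1.96 in periodontitis.

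The constant genes rose as well, Trac with a limma adjusted p of 0.00245, Trbc1 with 0.00605 and Trbc2 with 0.00977. Trac, the alpha constant gene, was at 50.8, 88.5, 91.7 and 88.3 FPKM in health and at 789, 479 and 311 FPKM in periodontitis, a 6.59-fold ratio of means. Per FPKM of Trac, the alpha segments gave 0.754, 0.532, 0.558 and 0.956 FPKM in health against 0.592, 0.575 and 0.725 in periodontitis. The groups overlapped, with a log2 difference of -0.12 (95% interval -0.76 to 0.53, exact permutation p = 0.80). Beta segments gave 0.599, 0.450, 0.441 and 0.494 FPKM per FPKM of Trbc1 and Trbc2 in health and 0.410, 0.476 and 0.415 in periodontitis, a log2 difference of -0.19 (95% interval -0.53 to 0.15, exact permutation p = 0.171). In bulk RNA, more T cells and more receptor RNA per T cell cannot be told apart.

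**Figure D1:**
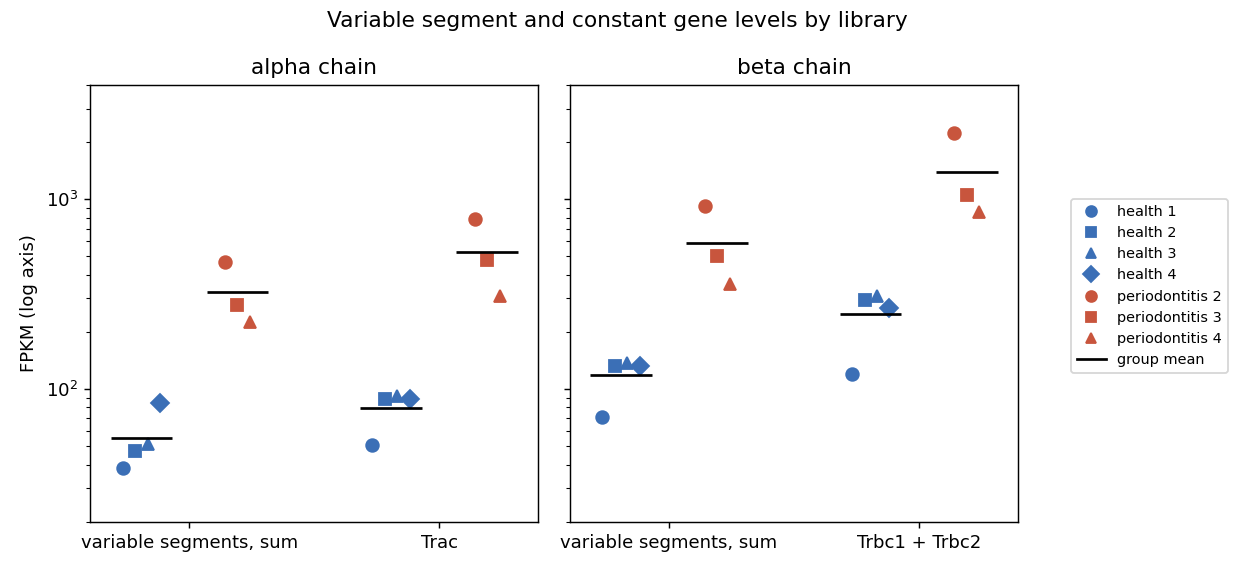
Summed FPKM of the 108 alpha (left) or 22 beta (right) variable segments and of the constant genes of the same chain, on a log axis, with 1 point per library (health blue, n = 4, periodontitis red, n = 3) and a bar at each group mean. The periodontitis points lie above all health points in each of the 4 columns, and the alpha segment sum is 38.3 to 84.5 FPKM in health against 225 to 467 FPKM in periodontitis.

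How many segments were in use, and how evenly, was counted next. A read was found for 43, 24, 37 and 43 alpha segments in health 1 to 4 and for 53, 61 and 16 in periodontitis 2, 3 and 4. Because periodontitis libraries hold more segment reads, the expected number of segments among 250 reads was computed for every library. That number was 43.0, 23.6, 36.4 and 40.5 in health and 43.3, 48.1 and 12.9 in periodontitis. Periodontitis 2 and 3 were the highest of the 7 libraries and periodontitis 4 the lowest, so the group means, 35.8 ± 8.63 (SD, n = 4) and 34.7 ± 19.1 (SD, n = 3), hide libraries that lie on both sides of health. The difference was -1.11 (95% interval -28.2 to 26, exact permutation p = 1), and without periodontitis 4 it was 9.82 in the other direction.

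The effective number of segments, the number of equally used segments that would give the same Shannon diversity, showed the same split. For the alpha chain it was 31.4, 17.4, 28.3 and 33.4 in health and 34.7, 38.1 and 10.9 in periodontitis. The difference of the means was 0.26 segments (95% interval -21.1 to 21.6, exact permutation p = 0.914), and 8.73 segments without periodontitis 4. The 5 most used alpha segments held 28.3% to 50.4% of the alpha total in health, 29.2% in both periodontitis 2 and periodontitis 3, and 58.2% in periodontitis 4. Health 2 was the narrowest health library, with 24 segments and 50.4% in the leading 5.

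The beta chain was broad in every library and differed less among them. Of the 22 beta segments 19, 16, 19 and 18 had a read in health and 18, 20 and 14 in periodontitis. The expected number among 472 reads ran from 16.0 to 19.0 in health and was 17.1, 19.8 and 14.0 in periodontitis. The effective number was 15.4, 13.5, 14.5 and 14.5 in health and 12.9, 14.7 and 10.9 in periodontitis, a difference of -1.62 (95% interval -4.32 to 1.08, exact permutation p = 0.229). Again periodontitis 4 was the lowest library.

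Evenness, the log of the effective number over the log of the number of segments read, runs from 0 to 1. For the beta chain it was 0.908 to 0.939 in health and 0.886, 0.898 and 0.903 in periodontitis, so the groups did not overlap (exact permutation p = 0.0571). With each library thinned to 472 beta reads, the mean over 100 draws was 0.919 to 0.942 in health and 0.901, 0.896 and 0.898 in periodontitis, and the groups still did not overlap. The 5 leading beta segments held 48.1% to 53.0% of the beta total in health and 57.6%, 53.9% and 68.4% in periodontitis, also without overlap. Alpha evenness was 0.899 to 0.933 in health and 0.893, 0.885 and 0.863 in periodontitis at full depth. Thinned to 250 reads it was 0.906 to 0.939 and 0.921, 0.914 and 0.894, and the groups then overlapped.

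**Figure D2:**
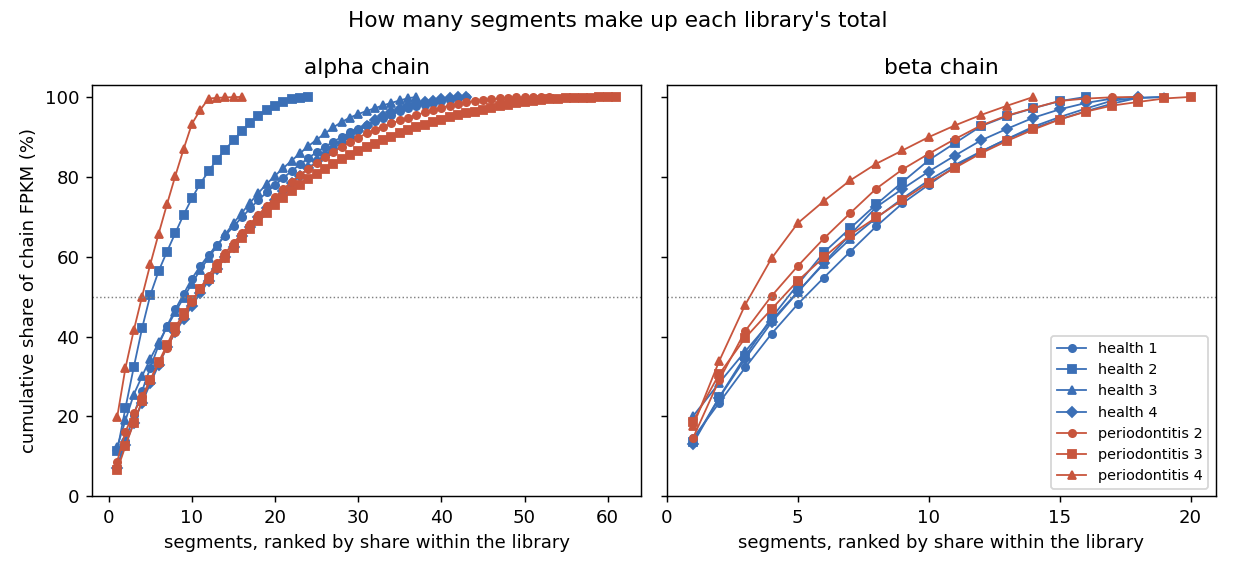
Cumulative share of the chain's summed FPKM (y axis, %) against the number of segments taken in order of their share within the library (x axis), with 1 line per library, health blue and periodontitis red. The dotted line marks 50%. Among alpha curves periodontitis 4 rises fastest and ends at 16 segments, and periodontitis 3 ends last at 61, while beta curves end between 14 and 20 segments.

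Of the 20 beta segments that reached a mean of 1 FPKM over the 7 libraries, 8 were called higher in periodontitis and 0 lower by limma on log2(FPKM + 1), with Benjamini-Hochberg adjustment over 12999 genes and a threshold of 0.05. Over all genes tested, 5.63% were called higher and 10.2% lower. At an unadjusted p under 0.05, 11 beta segments were higher and 0 lower. The median log2 difference was 1.73 for these 20 segments and -0.06 for all genes. Trbv21 had no read in any library and Trbv5 stayed under 1 FPKM. A segment could reach 1 FPKM through the periodontitis libraries alone, so these counts describe the segments and support nothing further. Trbv4 and Trbv5 lie within the span of 5830405F06Rik on the same strand, so their reads may be shared with it.

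Trbv19, the beta segment with the largest difference on the log2(FPKM + 1) scale, was at 1.60, 5.67, 4.23 and 1.44 FPKM in health against 35.8, 21.9 and 41.1 FPKM in periodontitis. Every periodontitis library lay well above every health library. The log2 difference was 3.09 (SE 0.41, limma adjusted p = 0.00198). Its share of the beta total was 1.09% to 4.28% in health and 3.91%, 4.35% and 11.6% in periodontitis, so the shares overlapped (exact permutation p = 0.114).

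Trbv13-2 was the most used beta segment in periodontitis 2 and 3 and in health 3 and 4. Its level was 6.03, 12.6, 27.4 and 17.4 FPKM in health and at 133, 93.9 and 50.4 FPKM in periodontitis, without overlap, with a log2 difference of 2.54 (SE 0.49, limma adjusted p = 0.0101). Its share was 8.42%, 9.51%, 20% and 13.2% in health and 14.5%, 18.7% and 14.2% in periodontitis, and these overlapped (exact permutation p = 0.400).

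The other members of the Trbv13 family were also called higher, with library patterns of their own. Trbv13-3 was at 5.32, 1.40, 9.83 and 6.01 FPKM in health against 133, 36.0 and 11.8 FPKM in periodontitis, a log2 difference of 2.78 (SE 0.77, limma adjusted p = 0.0435). It was highest in periodontitis 2 and near health in periodontitis 4, and its limma adjusted p was 0.0121 without periodontitis 4, 0.0556 to 0.102 without any other library and 0.144 with a replicate block, and the call was lost under 11 of 14 alternatives. Trbv13-1 was at 4.12, 11, 9.65 and 13 FPKM in health and at 56.5, 21.8 and 62.2 FPKM in periodontitis, a log2 difference of 2.15 (SE 0.45, limma adjusted p = 0.0141, and 0.0513 without periodontitis 2). It was the leading beta segment of periodontitis 4, with 17.5% of the beta total there and 6.16% and 4.33% in periodontitis 2 and 3.

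Health libraries read Trbv16 at 6.36, 17.9, 10.9 and 12.0 FPKM and periodontitis libraries at 79.8, 35.6 and 57.9 FPKM (log2 difference 2.20, SE 0.37, limma adjusted p = 0.00523). Trbv1, a partner segment of invariant natural killer T cells, had 6.36, 7.98, 8.47 and 9.81 FPKM in health against 68.8, 45.9 and 19.8 FPKM in periodontitis (log2 difference 2.17, SE 0.38, limma adjusted p = 0.00654). Trbv3 was at 4.63 to 15.1 FPKM in health against 113, 59.5 and 14.9 FPKM in periodontitis, a log2 difference of 2.39 (SE 0.65, limma adjusted p = 0.0397). Its groups overlapped, since periodontitis 4 lay just under health 4, and the limma adjusted p was 0.00541 without periodontitis 4, 0.0464 without health 4 and 0.0725 to 0.109 without any other library, with the call lost under 9 of 14 alternatives. Trbv2, named after its values were seen because it is the remaining called segment, had a log2 difference of 2.06 (SE 0.25, limma adjusted p = 0.00138).

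A few beta segments did not follow the chain in every library. Trbv12-1 was at 3.25, 13.7, 2.92 and 3.85 FPKM in health and at 0.865, 9.94 and 7.79 FPKM in periodontitis, with a log2 difference of -0.06 (SE 0.68, limma adjusted p = 0.965). Trbv31 was the leading segment of health 1, with 14.5% of the beta total, and had 394, 198 and 0 reads in periodontitis 2, 3 and 4. Trbv14, Trbv15 and Trbv26 were likewise read in the other 6 libraries and at 0 reads in periodontitis 4. Trbv15 held 5.46% to 8.33% of the beta total in health and 3.67%, 3.71% and 0% in periodontitis, and these shares did not overlap (exact permutation p = 0.0571). Because Trbv15 was named partly for this share loss, the p-value supports nothing further. Conversely Trbv4 had 46 reads in periodontitis 4 and none in the other 6 libraries. Trbv26 and Trbv4 were chosen after their values were seen.

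**Figure D3:**
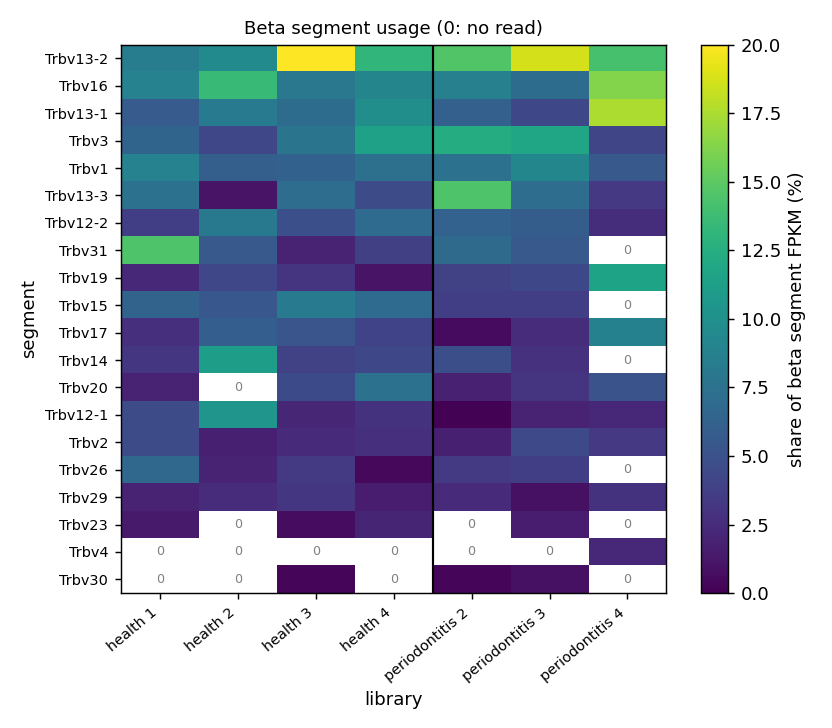
Share of each library's beta segment FPKM (colour, %) for the 20 beta segments with a mean of at least 1 FPKM (rows, by summed mean share) in the 7 libraries (columns, health left of the line). Cells with a grey 0 had no read. Trbv13-2 is the brightest row, and periodontitis 4 has no read for Trbv31, Trbv15, Trbv14 and Trbv26, which all other libraries read.

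Usage shared between libraries can be put in 1 number, the sum over segments of the smaller of the 2 shares. For the beta chain it was 67.5% to 81.1% between health libraries, 83.3% between periodontitis 2 and 3, and 55.5% and 57.4% between periodontitis 4 and those libraries. Health 1 and periodontitis 3 shared 77.6% and health 3 and periodontitis 3 82.8%, so pairs across the groups reached the values seen within them. For the alpha chain the numbers were lower, 29.4% to 49.0% between health libraries, 68.4% between periodontitis 2 and 3, and 20.7% and 24.2% between periodontitis 4 and those libraries. Across the groups the alpha values ran from 14.2% (health 4 and periodontitis 4) to 56.4% (health 1 and periodontitis 3). Their median was 35.9%, against 32.1% between health libraries. The health values rest on few reads, with a median of 4 to 9 reads per alpha segment read.

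Of the 108 alpha segments 28 had no read in any library, 40 were read but stayed under a mean of 1 FPKM, and 40 were tested. Of these 40, 8 were called higher in periodontitis and 0 lower by limma, against 5.63% and 10.2% of all genes, and 13 were higher and 0 lower at an unadjusted p under 0.05. The median log2 difference of the 40 was 1.51, and it was 0.72 over the 69 segments with a mean of at least 0.1 FPKM and 0.49 over the 80 with any read, of which 15 and 18 had a value below 0, against 1 of the 40. Many of the 40 passed the filter through the periodontitis libraries, so their count and median support nothing further. The call count depended on periodontitis 4, since without that library 21 alpha and 13 beta segments were called higher, and 6 of the 8 alpha and all 8 beta calls were among them. In 8 of all 108 alpha and 9 of all 22 beta segments every periodontitis library lay above every health library, and in none did every periodontitis library lie below. The same held above for 12.6% of the 12999 genes tested, which had to reach 1 FPKM while these segments did not. The alpha count is a smaller share of its 108 segments than that, and the beta count a larger share of its 22. 15 alpha segments had no read in health and at least 1 in periodontitis, and 7 the reverse.

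Trav6-5 had the largest difference of all the segments tested on the log2(FPKM + 1) scale. It was at 0.161, 0, 0.168 and 1.64 FPKM in health, which is 1, 0, 1 and 9 reads, and at 19.2, 16.8 and 16.0 FPKM in periodontitis, which is 107, 106 and 85 reads. The 3 periodontitis libraries were close to each other and far above health, with a log2 difference of 3.73 (SE 0.36, limma adjusted p = 0.000674, at most 0.00903 over 14 alternatives). Its share of the alpha total was 0.420%, 0%, 0.329% and 1.94% in health and 4.11%, 6.10% and 7.10% in periodontitis, so the shares did not overlap either (exact permutation p = 0.0571). Trav6-5 was named partly for this share gain, so the p-value supports nothing further. As a share of reads it was 4.03% (exact binomial 95% interval 3.31% to 4.84%) in periodontitis 2 and 1.88% (0.861% to 3.53%) in health 4, the nearest pair, where the intervals overlap. Of its 100-base windows 32.6% occur in no other gene model named Trav or Trbv, and Trav6n-5, its nearest copy, had 9 reads in health 4 and none elsewhere. Reads from the shared stretch cannot be assigned to 1 copy with certainty.

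Trav6d-5, the copy that differs more, had no read in health and 29, 18 and 88 reads in periodontitis 2, 3 and 4, or 5.77, 3.17 and 18.4 FPKM. Against the level that 3 reads over the 4 health libraries would give, its mean was at least 65.6-fold higher in periodontitis. Trav10n also had no read in health and 28, 5 and 93 reads in periodontitis, or 5.49, 0.867 and 19.1 FPKM. Its mean was at least 62.1-fold higher by the same floor, which is 0.137 FPKM for this segment. Its closest copy Trav10d, 99.1% identical, had 0, 0, 2 and 13 reads in health and 0, 1 and 0 in periodontitis. Reads from the stretch shared by copies may be counted under either, so both bounds hold only for reads assigned to the named copy. They are bounds on the group mean, which periodontitis 4 raised most, and periodontitis 3 alone lay below both. Trav6d-5 and Trav10n were both called higher by limma, Trav6d-5 with an adjusted p of 0.00475 and Trav10n with 0.0362. The Trav10n call did not hold without health 1, 2, 3 or 4 (limma adjusted p 0.0769 to 0.0849), periodontitis 2 (0.0969) or periodontitis 4 (0.0691), with no filter (0.0843) or with a replicate block (0.0930).

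Trav9-2 was at 0.107, 1.16, 1.46 and 0.847 FPKM in health and at 5.26, 7.18 and 44.5 FPKM in periodontitis. All periodontitis libraries lay above health, and periodontitis 4 stood far above the other periodontitis libraries. The log2 difference was 2.87 (SE 0.65, limma adjusted p = 0.0198), and the limma adjusted p ran from 0.00977 to 0.0729 over 14 alternatives, with 0.0587 without health 1. In periodontitis 4 it made up 19.7% of the alpha FPKM and 26.1% of the alpha reads (exact binomial 95% interval 23.8% to 28.6%), against 1.13% and 2.61% of the FPKM in periodontitis 2 and 3.

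Trav7-4 (log2 difference 2.82, SE 0.56, limma adjusted p = 0.0110) and Trav13-4-dv7 (2.56, SE 0.40, limma adjusted p = 0.00389) were read in all 7 libraries. Trav7-4 was at 0.280 to 4.23 FPKM in health against 14.8, 7.12 and 27.8 FPKM in periodontitis. Trav13-4-dv7, one of the segments that the delta chain can use, was at 0.531 to 2.16 FPKM in health and at 11, 6.64 and 21.2 FPKM in periodontitis. Neither pair of groups overlapped, and both segments were highest in periodontitis 4. Trav9-1 and Trav14d-3-dv8 were the other called segments, with log2 differences of 2.21 (SE 0.50, limma adjusted p = 0.0190) and 2.07 (SE 0.55, limma adjusted p = 0.0373). Trav9-1 lost the call without periodontitis 2 (0.0668) or periodontitis 3 (0.0517), with a pseudocount of 0.1 (0.0602), with voom (0.0809), with no filter (0.0570) and with a replicate block (0.0512). Trav14d-3-dv8 lost it under 11 of 14 alternatives, among them without health 1, 2, 3 or 4 (0.0507 to 0.0866), periodontitis 3 (0.0910) or periodontitis 4 (0.0974), with an adjusted p of up to 0.122. Trav9-1 is named because it was called, after its values were seen.

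Other strongly used alpha segments were high in periodontitis 2 and 3 and not read in periodontitis 4. Trav21-dv12, the most used alpha segment of periodontitis 2 and of health 3, was at 0.669, 0, 6.31 and 2.65 FPKM in health against 40.4, 15.2 and 0 FPKM in periodontitis. Trav4-4-dv10 was at 2.50, 0, 0 and 2.08 FPKM in health and at 35.2, 8.90 and 0 FPKM in periodontitis. Trav4-3, the most used alpha segment of periodontitis 3, was at 0.289 to 1.53 FPKM in health against 21.5, 17.8 and 0 FPKM in periodontitis. None of the 3 was called over the 7 libraries (limma adjusted p 0.357, 0.266 and 0.184), and all 3 were called without periodontitis 4 (0.0276, 0.0195 and 0.00197). Over all 14 alternatives the adjusted p ran from 0.0276 to 0.744 for Trav21-dv12, 0.0195 to 0.618 for Trav4-4-dv10 and 0.00197 to 0.455 for Trav4-3.

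Some of the leading alpha segments of health did not move with the chain. Trav14-3 was at 0.628, 4.79, 1.31 and 1.24 FPKM in health and at 3.15, 3.41 and 0 FPKM in periodontitis, and its log2 difference was 0.00 (limma adjusted p = 0.998). Its share was 3.96% ± 4.17 (SD, n = 4) in health and 0.637% ± 0.619 (SD, n = 3) in periodontitis, without overlap (exact permutation p = 0.0571). The nearest pair was 1.47% in health 4, on 7 reads, and 1.24% in periodontitis 3, on 22 reads. Trav14-3 was named for its level in health and for this share loss, so the p-value supports nothing further. Trav16n was at 0.726, 5.30, 1.52 and 4.11 FPKM in health against 7.14, 7.02 and 0 FPKM in periodontitis. It led health 2 with 11.2% of the alpha total. Segments with the letter n in their names together held 14.0%, 36.9%, 20.6% and 20.1% of the alpha total in health and 12.6%, 8.08% and 8.82% in periodontitis, so the groups did not overlap (exact permutation p = 0.0571). Those with the letter d held 15.5%, 0%, 6.57% and 13.4% in health and 17.4%, 13.9% and 25.4% in periodontitis, with overlap (exact permutation p = 0.114). Many d and n copies are identical in sequence, and how reads that match several copies were counted is not given. The split by letter is therefore uncertain.

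**Figure D4:**
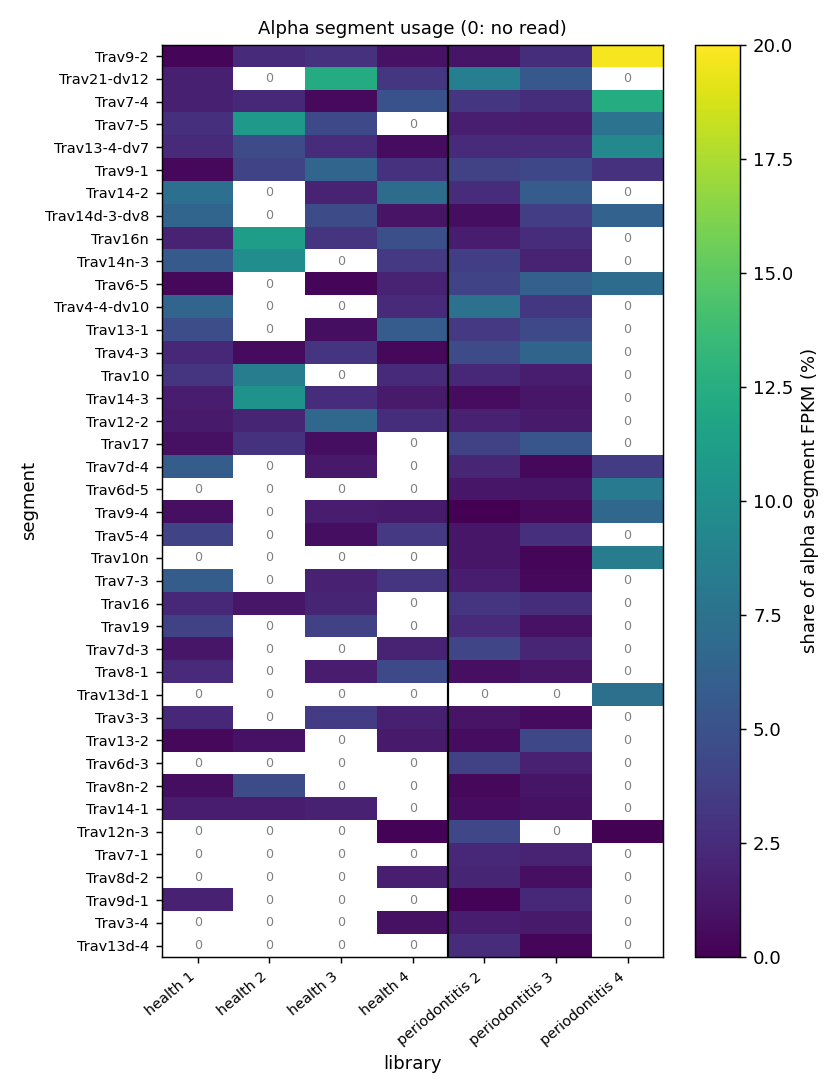
Share of each library's alpha segment FPKM (colour, %) for the 40 alpha segments with a mean of at least 1 FPKM (rows, by summed mean share) in the 7 libraries (columns, health left of the line). Cells with a grey 0 had no read. Periodontitis 2 and 3 are filled over nearly all rows at low shares, while periodontitis 4 has few filled cells, among them Trav9-2 at 19.7% and Trav7-4 at 12.4%.

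Alpha segments in periodontitis 4 were either well read or not read. Of the 16 segments with a read, 12 had 20 reads or more and the other 4 had 1 or 2. Of the 24 alpha segments that had at least 20 reads in both periodontitis 2 and 3, 17 (70.8%) had no read in periodontitis 4, where a count of 0 of 1358 alpha reads allows a share of up to 0.221%. The same count over beta segments was 4 of 16 (25%), over the other T cell receptor variable genes, mostly of the gamma and delta chains, 1 of 7 (14.3%), and over immunoglobulin variable genes 10 of 142 (7.04%). Over all genes it was 1432 of 12189 (11.7%), and over those with no more reads than the highest alpha segment, 216, it was 1211 of 2990 (40.5%). Turned around, 0 of 10 alpha segments well read in periodontitis 2 and 4 were missing from periodontitis 3, and 0 of 7 well read in periodontitis 3 and 4 were missing from periodontitis 2. Fewer genes of any kind were read in periodontitis 4, and the part of this in the alpha pattern was not tested.

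Some segments were read in periodontitis 4 and hardly elsewhere. Trav13d-1 had 93 reads there and none in the other 6 libraries. Its closest copy Trav13n-1, 99.7% identical, had 0, 4, 10 and 19 reads in health and 0, 0 and 2 in periodontitis, and shared reads may be counted under either. Trav9-4 had 85 reads in periodontitis 4, 1 and 10 in periodontitis 2 and 3, and 2, 0, 5 and 7 in health. Trav13d-1 and Trav9-4 were chosen after their values were seen, as was Trav12n-3, with 104 reads in periodontitis 2, none in periodontitis 3 and 1 in periodontitis 4.

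The alpha and joining segments of invariant T cells gave few reads. Trav11, the alpha segment of invariant natural killer T cells, had no read in any library and Trav11d had 1 read, in periodontitis 4. These copies are identical, and how reads that match both were counted is not given. Traj18, the joining segment of the same receptor, lies outside this repeat and had 1, 8, 4 and 16 reads in health and 0, 10 and 0 in periodontitis, with a log2 difference of -1.48 (SE 0.96, limma adjusted p = 0.334). It was read in each health library, in a group whose total alpha reads were far fewer, but in health 1 on 1 read, worth 0.913 FPKM. These counts do not show which variable segment a Traj18 read was joined to. Zbtb16, a transcription factor of innate-like T cells, had a log2 difference of 1.07 (SE 0.43, limma adjusted p = 0.133). Cd1d1, whose product presents lipids to invariant natural killer T cells, fell by 1.73 on the log2 scale (SE 0.36, limma adjusted p = 0.0129). It belongs to the presenting side, and all 6 macrophage markers were called lower as well. Whether Cd1d1 fell with them was not tested. Trav1, the segment of mucosal-associated invariant T cells, had 2, 0, 0 and 17 reads in health and 0, 13 and 0 in periodontitis, and Traj33 was at 0 in all libraries. Trbv29, a partner of Trav11, was at 1.37 to 4.29 FPKM in health and at 22.9, 4.38 and 10.4 FPKM in periodontitis, without overlap, and missed the threshold (log2 difference 1.65, SE 0.50, limma adjusted p = 0.0577).

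The 10 alpha segments with dv in their names held 18.9%, 4.59%, 24.5% and 9.58% of the alpha total in health and 19.7%, 16.6% and 15.7% in periodontitis, so these shares overlapped (exact permutation p = 0.629). 3 of the 10, all named Trav15, had no read. Gamma-delta T cell markers rose in the same libraries, and the 14 other T cell receptor variable genes summed to 8.11 to 18.4 FPKM in health and to 232, 237 and 325 FPKM in periodontitis 2, 3 and 4. Unlike the alpha and beta totals, that sum was highest in periodontitis 4. How much of a dv segment's RNA came from delta chains cannot be told from these counts.

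How often an alpha segment was read went with how unique its sequence is. Over all 108, the identity to the closest other alpha segment had a median of 98.8%, and 38 were identical to another over the shorter model. Of the 34 alpha segments with no 100-base window of their own, 21 had no read in any library, against 3 of the 57 with most windows of their own (a window is unique when it occurs in no other gene model named Trav or Trbv). Trav12n-3 and Trav12d-3, shown above with the same end, had 106 and 0 reads over the 7 libraries, and 2.36% and 0% unique windows. By copy letter, 4 of 46 segments without a letter, 16 of 34 with d and 8 of 28 with n had no read. Beta segments had a median identity of 64.2% to their closest other beta segment, at most 90.6%, and all 22 had most windows of their own. Neither read length nor the handling of reads that match several places is given in the sources used here, so counts of alpha copies are uncertain, and a sum over a family is less so.

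**Figure D5:**
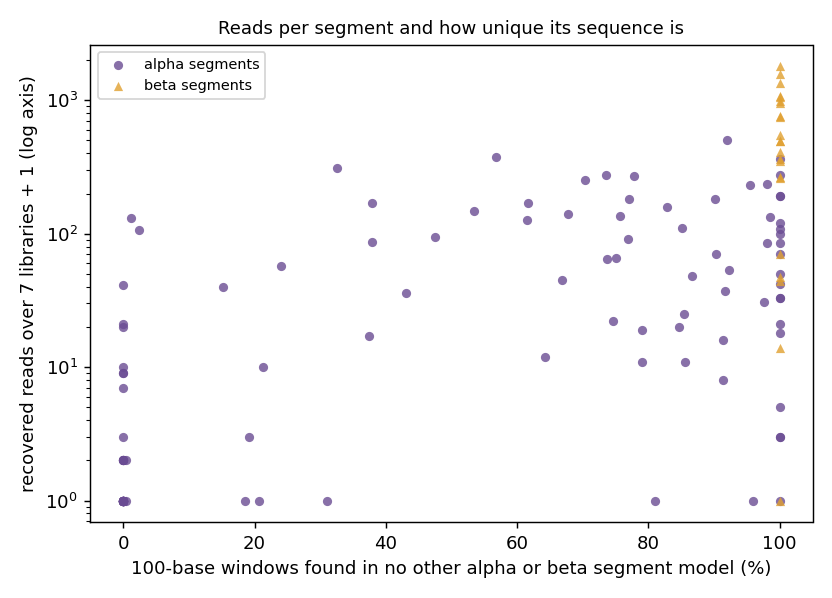
Recovered reads over the 7 libraries plus 1 (y axis, log) against the percentage of a segment's 100-base windows that occur in no other gene model named Trav or Trbv (x axis), with 1 point per alpha segment (purple circles, 108) and beta segment (yellow triangles, 22). Alpha segments at 0% lie mostly at the bottom, 21 of 34 with no read, and beta segments lie at the right edge.

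Summed by family, alpha usage kept the same order of libraries at the low end. The effective number of alpha families, of 21, was 11.6, 8.43, 12.0 and 12.9 in health and 12.8, 12.5 and 5.39 in periodontitis. Among families with at least 20 reads in both periodontitis 2 and 3, 8 of 15 (53.3%) were at 0 in periodontitis 4.

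The genes that carry out and regulate receptor rearrangement were read beside the segments. Of the 24 listed, 20 were tested and 5 were called higher, none lower, by limma, among them Gata3 (log2 difference 2.20), Bcl11b (1.83), Runx3 (1.42) and Runx1 (0.75), which are transcription factors of T cells at several stages. Rag1, a subunit of the recombinase that cuts the segments, was at 0.391 to 1.2 FPKM in health against 0, 0.162 and 0 FPKM in periodontitis. Ptcra, which pairs with the new beta chain in thymocytes, was at 0 in every library. Of the 17 receptor context genes 12 were called higher and 1, Cd1d1, lower, where 5.63% and 10.2% of all genes were, among the higher Cd3e, a signalling chain of the receptor (log2 difference 2.69, SE 0.41, limma adjusted p = 0.00341), and Cd4, the helper co-receptor (2.10, SE 0.19, limma adjusted p = 0.000594). Cd8a and Cd8b1, the cytotoxic co-receptor, were not called (limma adjusted p 0.641 and 0.932).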

How the data were processed

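The authors deposited FPKM for 54532 genes in 1 table, with gene length and biotype per the file headers. The submitters' processing notes name mm10, HISAT2 2.0.5, featureCounts 1.5.0-p3 and DESeq2, without roles or settings. FPKM times gene length gave whole multiples of 1 step per library for 100% of values (within 0.001 of a read), from which reads were recovered. At 400 bases 1 read is worth 0.148 to 0.176 FPKM. Library numbers follow the sample descriptions, because titles number periodontitis 1 to 3.

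The 12999 genes that reached 1 FPKM on average were fitted with limma 3.58.1 (R 4.3.3) on log2(FPKM + 1), with a variance trend, a scale that understates changes of low genes. The script was tested on simulated data. Values per library were compared by an exact two-sided permutation test (2 times the smaller tail). Intervals of differences use the pooled SD between libraries, while binomial intervals and floors of 3 reads cover counting error only. No 2 libraries agreed within sampling noise (lowest chi-square per degree of freedom 27.3). Equal library numbers did not pair (correlations -0.05, -0.02 and 0.04).

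Segments were named by a rule: the 6 highest of each chain and group, the 5 largest called changes, the 5 largest share gains and losses, invariant-receptor and dv segments. Members and gene lists were chosen with earlier results of these data known. Alternatives were another pseudocount and filter, no filter, quantile normalization, short features left out, voom, a replicate block and each library left out. Sequences come from GENCODE M21.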

Additional observations from a re-analysis of the deposited data

Results flagged for a closer look

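Of 40 values tested in the 4 health libraries for 1 library far from the rest, 3 were picked out, where chance gives about 1 in 20. The beta segment total of health 1, 71.6 FPKM, lay far below the other health libraries (132 to 137 FPKM). Trav14-3 stood at 4.79 FPKM in health 2, against 0.628 to 1.31 FPKM in the others, and Trbv12-1 at 13.7 FPKM in health 2, against 2.92 to 3.85 FPKM.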

How the results depend on the processing

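The number of alpha segments called higher was 8, and it was 4 with no filter on low values, 5 with voom on recovered reads and 5 with a replicate block. Leaving out 1 library in turn gave 5 to 21 for the alpha chain and, from 8, 5 to 13 for the beta chain, with both highest counts without periodontitis 4. The replicate block left 6 beta calls. Samples share only a number here, since same-numbered libraries did not deviate together and not every library correlated best with its own number. No alternative called a segment lower, and none turned the sign of a called segment. Trav6-5, Trav6d-5, Trav7-4, Trav13-4-dv7, Trbv1, Trbv2, Trbv13-2, Trbv16 and Trbv19 kept their calls under all 14 alternatives. Leaving out features under 200 bases and rescaling moved the median log2 difference of all genes from -0.06 to -0.28, and 7 alpha and 9 beta segments were then called. The difference in alpha rarefied breadth, -1.11, was 9.82 without periodontitis 4, and that in the beta chain, -0.98, was 0.49. After the data were seen, thinning to equal reads was added and gave effective number differences of -1.89 (alpha) and -1.86 (beta), and minima of 10 and 50 reads gave 74.3% and 70.0% of alpha segments at 0 in periodontitis 4. Health libraries held 250 to 480 alpha reads, so a segment at 0 there may have had a share of up to 0.625% to 1.2% of the reads.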
